A study of Saccharomyces cerevisiae with 12 samples.

Results

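The question addressed here was which genes responded differently to the loss of Cyc8p when the cells could not flocculate. For every gene, the log2 fold change upon Cyc8p depletion in flocculating cells (Flo+ Cyc8-AA, +Rap over -Rap) was subtracted from that in non-flocculating cells (Flo- Cyc8-AA, +Rap+Man over -Rap+Man). The result is called the difference in ratios, and a positive value means a higher ratio in the Flo- experiment. It is described for the 5771 of 6775 genes that had 10 or more counts in all 12 samples.

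The experiments consisted of 4 groups of 3 replicates, all from the single strain Cyc8-AA. The +Rap+Man cells received rapamycin (1 µg/ml) and mannose (0.25 M), and their -Rap+Man controls mannose and the solvent. The +Rap cells received rapamycin alone, and their -Rap controls the solvent only. Every culture was grown in YPD at 30 °C to early log phase, divided in 2, and harvested after 4 h. The strain is of the HHY221 background and of mating type a. It carries tor1-1 and fpr1::loxP-LEU2-loxP, the ribosomal anchor RPL13A2xFKBP12::loxP and the tagged corepressor CYC8-FRB::HIS3, so that the controls hold every one of these alleles as well. Ribosomal RNA was removed before strand-specific sequencing, with single-end reads for Flo- and paired-end reads for Flo+. Mannose, the absence of flocculation and the sequencing run changed together between the experiments and cannot be told apart. The paper marks the -Rap and the -Rap+Man controls alike as not flocculating. Between these controls mannose and the sequencing run changed together, and these cannot be told apart either. Each fold change upon depletion compares samples of 1 experiment. The difference in ratios, and any comparison of the controls or of the depleted samples, could not be had within a run, since each run held 1 experiment.

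Cyc8p and Tup1p form a corepressor that is brought to its target genes by many DNA-binding repressors. Its targets include genes for the uptake and use of sugars other than glucose, for anaerobic growth, for stress, for mating and for flocculation. Flocculation is the clumping of yeast through lectins on the cell surface, called flocculins, and sugar added to the medium can occupy these lectins and keep the cells apart. Cells inside a floc lie close together, which limits how nutrients and oxygen reach them. In the anchor-away system rapamycin ties the tagged protein to a ribosomal protein that leaves the nucleus, and the gene itself stays intact.

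Between 41896192 and 48675825 reads were counted per +Rap+Man sample, 35905327 to 51088194 per -Rap+Man sample, 26125728 to 30562700 per +Rap sample and 27113127 to 29595591 per -Rap sample. *CYC8* was examined first. It had 1413, 1818 and 1564 normalized counts in +Rap+Man samples, against 1992, 2192 and 1856 in -Rap+Man samples, and 2460.1, 2921 and 2860.2 in +Rap samples, against 2350.2, 2156 and 1715 in -Rap samples. The gene was therefore read in every sample, and its level does not check the labels. Its difference in ratios was -0.75 ± 0.20 (log2, SE, limma, adjusted p = 0.027), which was not called, and those of its partner *TUP1* (0.27 ± 0.24) and of *ACT1*, which encodes actin (0.47 ± 0.23), were not called either. All 7 markers of mating type a were read in every sample. Their summed normalized counts lay between 100925 and 120712 in +Rap+Man, 65238 and 73583 in -Rap+Man, 17814 and 21078 in +Rap and 29473 and 44965 in -Rap samples, against 912 to 1681 for the 4 alpha markers. The 6 markers of meiosis summed to 2492 to 3848 in +Rap+Man, 545 to 632 in -Rap+Man, 9679 to 10692 in +Rap and 1818 to 2364 in -Rap samples. In depleted samples most of this sum came from *IME1* alone, with log2 fold changes of 4.58 in Flo- and 5.57 in Flo+. Those of the other meiosis markers ran from 0.04 (*NDT80*) to 1.19 (*HOP1*) in Flo- and from -0.21 to 1.33 in Flo+.

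Calls required a log2 value of 1 or more in size and a limma p-value, adjusted after Benjamini and Hochberg over the 6403 genes tested, no higher than 0.01. Normalized counts are counts scaled to a library of 37220945 reads. A log2 value carries its standard error, and n is 3 per group. Since the samples were bulk RNA, fewer cells that express a gene and less RNA per cell cannot be told apart.

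Of the 5771 genes, 125 had a higher difference in ratios in Flo- (2.17%) and 67 a lower one (1.16%). Among all 6403 genes tested, 2.61% were called higher and 1.16% lower. The genes on the higher side were for the most part genes that Cyc8p depletion raised in both experiments and raised further in Flo-. Their median log2 fold change was 4.03 in Flo- and 1.91 in Flo+, and 89 of the 125 were called upregulated in both experiments. A further 27 were called upregulated only in Flo-, 4 were called in neither, 4 were called downregulated only in Flo+ and 1, *ALD5*, was called downregulated in both. For comparison, 14.5% of the genes tested were called upregulated and 3.06% downregulated in Flo-, and 11.0% upregulated and 2.17% downregulated in Flo+.

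The lower side had another make-up. Its median log2 fold change was -0.67 in Flo- and 0.61 in Flo+, and in 44 of the 67 genes the fold changes of the experiments had opposite signs. Only 4 of the 67 were called upregulated in both experiments, 16 were called upregulated only in Flo+, 16 downregulated only in Flo-, 2 downregulated in both and 27 in neither. The remaining 2, *SLI1* and *AGP3*, were called downregulated in Flo- and upregulated in Flo+. Over all 5771 genes the median difference was -0.019. The number of genes called downregulated in Flo+, with or without a call in Flo-, rested on single controls, as 136 among the 5771 became 77 without -Rap replicate 2 and 232 without -Rap replicate 3.

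**Figure D1:**
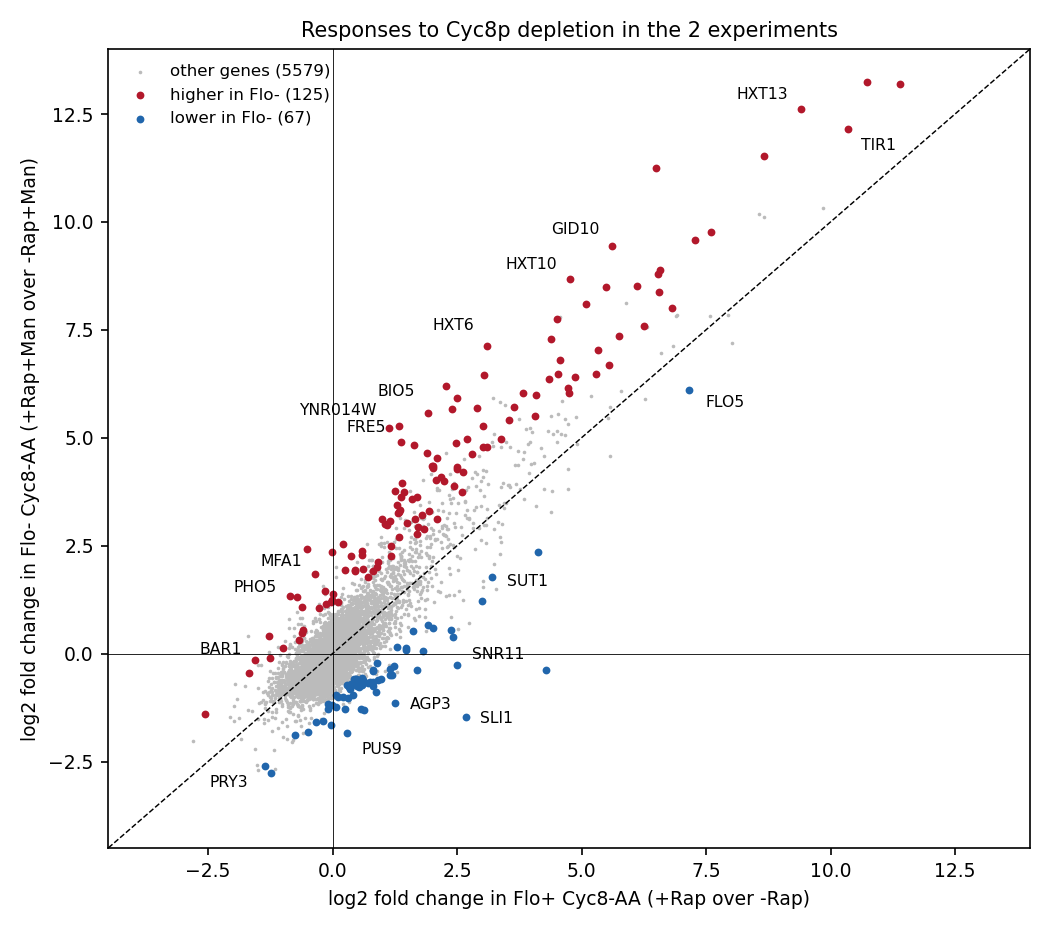
Log2 fold change upon Cyc8p depletion in Flo- Cyc8-AA (+Rap+Man over -Rap+Man, vertical axis) against that in Flo+ Cyc8-AA (+Rap over -Rap, horizontal axis) for the 5771 genes, with 125 genes called higher in Flo- in red, 67 called lower in blue, and the dashed line where the fold changes are equal. Most red points lie right of 0 and above the line, while the blue points lie below it and mostly below 0 on the vertical axis.

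The difference in ratios equals the log2 difference between the depleted samples (+Rap+Man over +Rap) minus that between the controls (-Rap+Man over -Rap), so either can carry it. Among the 125 higher genes the depleted samples differed by a median log2 of 0.99 and the controls by -0.93, and in 58 genes (46.4%) the controls differed more. Much of the higher side was thus made of genes whose -Rap+Man level lay under the -Rap level. Among the 67 lower genes the depleted samples differed by a median of -1.27 and the controls by 0.04, and in 10 genes (14.9%) the controls differed more. The 3 log2 ratios of same-numbered samples did not overlap between the experiments for any of the 192 called genes, and neither did they for 41% of all 5771 genes.

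**Figure D2:**
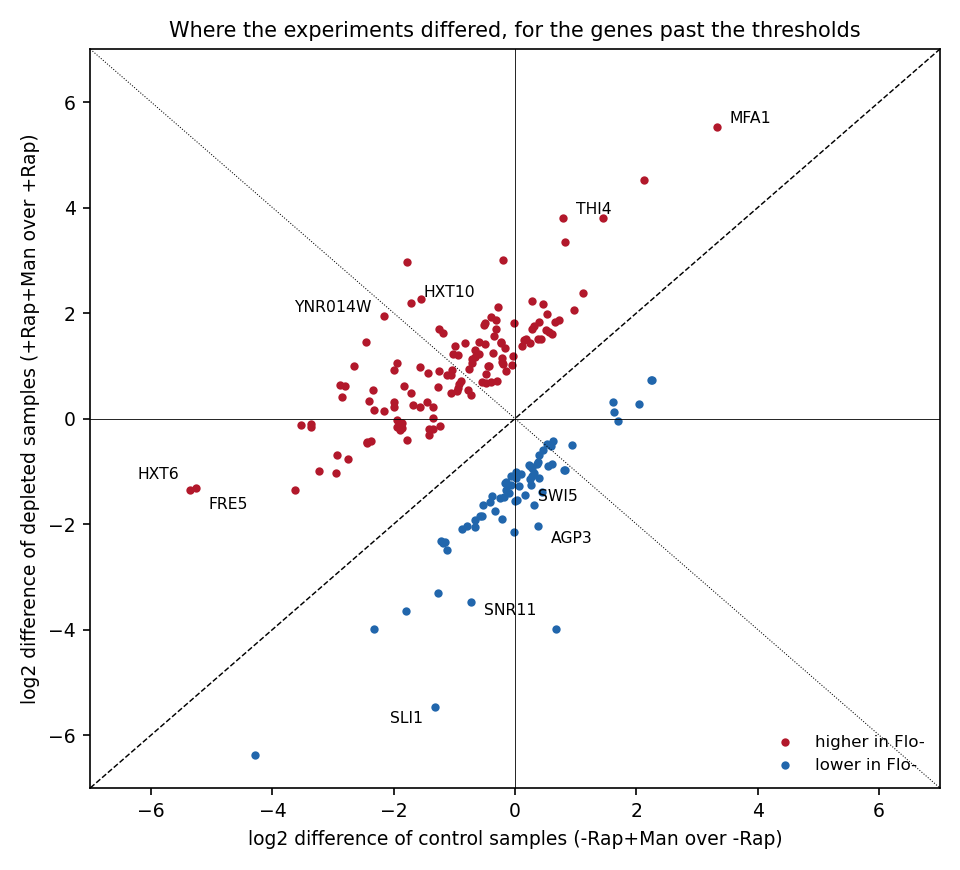
The 2 components of the difference in ratios for the called genes, as the log2 difference of depleted samples (+Rap+Man over +Rap, vertical axis) against that of control samples (-Rap+Man over -Rap, horizontal axis), with a dashed line where they are equal and a dotted line where they are equal in size and opposite in sign. Red points (higher in Flo-) spread to the left of 0, down to *HXT6* and *FRE5* at -5.36 and -5.26, while blue points (lower in Flo-) lie mainly under 0 around the middle, with *SLI1* at -5.46 on the vertical axis.

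The number of calls varied when single libraries were left out. When each of the 12 libraries was left out in turn, between 72 and 139 genes were called higher, and 69 of the 125 kept their call in every fit. The number fell to 72 without +Rap replicate 1, 75 without +Rap replicate 3 and 83 without +Rap+Man replicate 3. Between 27 and 84 genes were called lower, and 24 of the 67 kept their call in every fit. That number fell to 44, 30 and 27 without +Rap replicate 1, 2 and 3, and to 40 and 34 without +Rap+Man replicate 2 and 3. No called gene changed its direction in any of these fits. Each of these fits had 1 sample fewer in a group, so a call could be lost with its difference nearly unchanged.

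Sugar uptake and use stood on the higher side. Of 8 major hexose transporters 3 were called higher and none lower, with a median difference of 1.46, and of 5 minor hexose transporters 2 were called higher, with a median of 1.09. *HXT10* (YFL011W), a minor hexose transporter, had 6456, 10016 and 12741 normalized counts in +Rap+Man samples, against 20.5, 21.4 and 21 in -Rap+Man samples. It had 1666, 2126 and 2455 in +Rap samples, against 71.5, 43.3 and 126 in -Rap samples. Both ends moved, as every +Rap+Man sample lay above every +Rap sample and every -Rap+Man sample below every -Rap sample. Its difference in ratios was 3.90 ± 0.46 (limma, adjusted p = 0.0002), from a log2 fold change of 8.67 in Flo- and 4.77 in Flo+.

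*HXT6* (YDR343C), a high-affinity glucose transporter with 1 near-identical copy between which reads may be split, had 12608, 15365 and 11455 normalized counts in +Rap+Man samples, against 83.4, 71.8 and 130.3 in -Rap+Man samples. In +Rap samples it had 26240.2, 34996 and 40088, against 1651, 5030.5 and 6999 in -Rap samples. Here the depleted levels were lower with mannose than without, and the difference of 4.01 ± 0.58 (limma, adjusted p = 0.00088) lay in the controls, which differed by -5.36 on the log2 scale. Its copy *HXT7*, singled out after its value was seen, had a difference of 1.51 ± 0.33 (limma, adjusted p = 0.011) and was not called. *HXT2*, another high-affinity glucose transporter, averaged 378392 ± 50661 (SD) in +Rap+Man and 13751 ± 1315 in -Rap+Man samples, and 440086 ± 27867 in +Rap and 51756 ± 8606 in -Rap samples. Its difference was 1.68 ± 0.23, again with a larger control component (-1.90) than depleted component (-0.23). *GAL2*, the galactose permease, had a difference of 2.44 ± 0.26 and *HXT13*, which has 1 near-identical copy, one of 3.21 ± 0.38. The *HXT13* difference lay in the controls (-3.37, against -0.16 in the depleted samples). Its -Rap+Man samples had only 15.2, 9.41 and 6.78 normalized counts, with a lowest raw count of 10. *HXT1* and *HXT3*, low-affinity glucose transporters singled out after their values were seen, had differences of -0.47 and 0.41 and were not called.

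Of 11 genes for the use of sucrose and maltose, 4 were called higher and none lower, with a median of 0.94. These were the maltase genes *MAL12* (2.26 ± 0.34) and *MAL32* (1.71 ± 0.18), each with 1 near-identical copy and uncertain for that reason, the alpha-glucoside permease gene *MAL11* (1.86 ± 0.32) and the activator gene *MAL33* (1.08 ± 0.21). In contrast to *HXT6* and *HXT2*, *MAL32* and *MAL33* differed mainly in the depleted samples. *MAL33* had 6961, 6899 and 6458 normalized counts in +Rap+Man samples, against 960.4, 916 and 1085 in -Rap+Man samples, and 2229, 2193 and 2056 in +Rap samples, against 698, 819.7 and 513 in -Rap samples. The call of *MAL11* was lost without +Rap replicate 1 or 3 (1.72 and 1.82), and that of *MAL33* was kept only without -Rap replicate 3 or -Rap+Man replicate 3 (0.93 to 1.27 over the fits). *SUC2*, the invertase gene, had a difference of 0.37 ± 0.24 and was not called, at log2 fold changes of 6.97 in Flo- and 6.6 in Flo+. *MTH1*, which encodes a negative regulator of glucose sensing, was the only one of 17 glucose signalling genes called, with a difference of 1.69 ± 0.27 and a control component of -1.87. That list as a whole lay on the other side, with a median of -0.44 and 3 of 17 genes above 0. *SOR1*, a sorbitol dehydrogenase gene with 1 near-identical copy, was the only one of 6 alternative sugar dehydrogenase genes called, at 1.18 ± 0.21. Its call was lost without +Rap replicate 1 or 2 or +Rap+Man replicate 2 or 3 (1.09 to 1.30 over the fits). None of 18 glycolytic genes was called, although all 18 had a difference above 0 and their median was 0.72. *TDH2*, a glyceraldehyde-3-phosphate dehydrogenase gene with 2 near-identical copies, was among them at 1.33 ± 0.33 (limma, adjusted p = 0.019).

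Glycerol genes fell on both sides. *STL1* (YDR536W), the glycerol symporter gene, had 24008, 25339 and 16577 normalized counts in +Rap+Man samples, against 47, 65 and 64.5 in -Rap+Man samples. It had 9258, 12121 and 10229.9 in +Rap samples, against 225, 245 and 219 in -Rap samples, and its difference was 2.99 ± 0.25 (limma, adjusted p = 1.1e-05). *DAK2*, a dihydroxyacetone kinase gene, had a difference of 2.88 ± 0.20, with log2 fold changes of 11.54 in Flo- and 8.66 in Flo+. Both genes combined a control component below -1.9 with a smaller depleted component above 0.5. In contrast, *HOT1*, which encodes a transcription factor of osmotic stress genes, was lower, with 525, 499 and 595 in +Rap+Man samples, against 886, 835 and 834 in -Rap+Man samples, and 908, 1073 and 980.1 in +Rap samples, against 593, 611 and 485 in -Rap samples. Its level was thus below the control in every +Rap+Man sample and above the highest control in every +Rap sample. The difference of *HOT1* was -1.47 ± 0.18 (limma, adjusted p = 0.00028). The other 16 of the 19 genes of glycerol and osmotic stress were not called, and the median of the list was 0.37.

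Iron uptake genes were the list with the most calls on the higher side by number. Their share called higher was 25.9%, against 2.17% of all 5771 genes. Several shorter lists had larger shares, among them seripauperins (55.6%) and major hexose transporters (37.5%). Of 27 genes 7 were called higher and none lower, 26 had a difference above 0, and the median was 0.85. *FRE5* (YOR384W), a putative ferric reductase gene, had 951, 1109.8 and 791 normalized counts in +Rap+Man samples, against 19.2, 29.9 and 19.7 in -Rap+Man samples. In +Rap samples it had 2168, 2370.2 and 2512, against 1061, 867 and 886 in -Rap samples. Its difference of 3.94 ± 0.25 (limma, adjusted p = 2.1e-06) lay in the controls, since +Rap+Man levels were below +Rap levels in every sample. *FIT2*, which encodes a cell wall mannoprotein that retains siderophore iron, showed the opposite layout. It had 100649, 135106 and 81919.7 in +Rap+Man samples, against 299.8, 348 and 281 in -Rap+Man samples, and 30162, 30653 and 28206 in +Rap samples, against 226, 299.8 and 449.8 in -Rap samples. The *FIT2* controls overlapped and its depleted samples did not, with a difference of 1.82 ± 0.32 (limma, adjusted p = 0.0032).

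The siderophore transporter genes *ARN2* (1.44 ± 0.20) and *ENB1* (1.42 ± 0.30), the ferric reductase genes *FRE1* (1.95 ± 0.41) and *FRE4* (1.34 ± 0.28) and the low-affinity iron transporter gene *FET4* (1.00, the last of the list and named after its value was seen) made up the rest of the iron calls. Of these, *ARN2* kept its call without any single library. *FRE1* kept it only without -Rap+Man replicate 1 or 3, and *FRE4* only without -Rap replicate 1 or 3. *ENB1* kept it only without one of the 3 -Rap samples or -Rap+Man replicate 1, and *FET4* only without -Rap replicate 3 or -Rap+Man replicate 1. The differences over the fits were 1.59 to 2.14 for *FRE1*, 1.09 to 1.55 for *FRE4*, 1.15 to 1.6 for *ENB1* and 0.91 to 1.18 for *FET4*. The call of *FIT2* was lost without +Rap replicate 1 or 3 (1.82 and 1.79). *AFT1* and *AFT2*, which encode the activators of the iron regulon and were singled out after their values were seen, had differences of 0.05 and 0.27 and were not called. Of 16 copper and zinc genes, *FRE7*, a copper-responsive metalloreductase gene (2.80 ± 0.60), and *VEL1*, which has 1 near-identical copy (1.79 ± 0.29), were called higher. *FRE7* kept its call only without +Rap replicate 2 or -Rap+Man replicate 1 or 3 (2.23 to 3.14 over the fits).

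The promoters of iron uptake genes are shown because Aft1 binds a core of the letters GCACCC. This core, searched for on both strands in the 270 bases that end 81 bases before the annotated start, was found in 16 of 27 iron uptake genes (59.3%), in 4 of the 7 that were called, and in 4.02% of 5552 such windows. The windows of *FRE5* (chrXV:1061214-1061483, plus strand) and *FIT2* (chrXV:1059181-1059450, plus strand) are from RefSeq assembly R64, with the core and its reverse complement in capitals.
FRE5: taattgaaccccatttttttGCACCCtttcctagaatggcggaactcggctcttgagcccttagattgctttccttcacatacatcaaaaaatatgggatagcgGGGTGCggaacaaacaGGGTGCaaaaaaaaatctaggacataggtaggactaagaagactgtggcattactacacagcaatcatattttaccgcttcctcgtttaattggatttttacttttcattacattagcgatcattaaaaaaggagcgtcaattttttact
FIT2: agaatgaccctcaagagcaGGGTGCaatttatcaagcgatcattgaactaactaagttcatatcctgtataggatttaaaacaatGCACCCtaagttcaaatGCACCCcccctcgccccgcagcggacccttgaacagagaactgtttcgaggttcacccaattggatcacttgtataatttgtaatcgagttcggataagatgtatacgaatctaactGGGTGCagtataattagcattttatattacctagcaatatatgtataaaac
*FRE5* holds 3 matches and *FIT2* holds 4. Among all windows of called genes the core was in 7.32% on the higher and 6.45% on the lower side.

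Among 26 genes for thiamine, pyridoxine and biotin, 5 were called higher and none lower, 24 had a difference above 0 and the median was 0.80. *BIO5* (YNR056C), which encodes a transporter of a biotin precursor, had 3853, 3184 and 3402 normalized counts in +Rap+Man samples, against 64.2, 75.2 and 74.6 in -Rap+Man samples. It had 1734, 1669.7 and 1819 in +Rap samples, against 604, 459 and 354 in -Rap samples. No groups of *BIO5* overlapped, and its difference was 3.66 ± 0.24 (limma, adjusted p = 2.1e-06). *THI4*, which encodes the enzyme that makes the thiazole of thiamine, had 60347, 145486 and 31929 in +Rap+Man samples, against 242, 244 and 230.0 in -Rap+Man samples, and 4889.7, 4702 and 4558 in +Rap samples, against 153, 146 and 113 in -Rap samples. The +Rap+Man samples of *THI4* were far apart from each other yet all above the +Rap samples, and its difference was 3.00 ± 0.53 (limma, adjusted p = 0.0037). *SNO1*, a gene of pyridoxine synthesis, was called upregulated in Flo- (2.35) with a fold change near 0 in Flo+ (-0.02). *PET18* had a difference of 1.82 ± 0.25 and *THI6*, a gene of thiamine synthesis, one of 1.5 ± 0.31. The call of *THI4* was lost without any of the 3 +Rap samples (2.97 to 3.01), and *THI6* kept its call only without +Rap+Man replicate 1 or 2 (1.15 to 1.71 over the fits). *SNZ1*, the neighbour and partner of *SNO1* and singled out after its value was seen, had a difference of 0.82 and was not called.

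Phosphate genes contributed 5 higher calls out of 20 genes and no lower one, with a median of 0.33. *PHO5* (YBR093C), the repressible acid phosphatase gene, had 5644, 5825 and 6309 normalized counts in +Rap+Man samples, against 3182, 2105 and 1935 in -Rap+Man samples. It had 3536, 5408 and 4031 in +Rap samples, against 7177, 8951 and 7228 in -Rap samples. *PHO5* was therefore above its control in every +Rap+Man sample and below it in every +Rap sample, with log2 fold changes of 1.33 and -0.86 and a difference of 2.20 ± 0.27 (limma, adjusted p = 0.00033). *SPL2*, which encodes an inhibitor of low-affinity phosphate transport, was likewise above its controls in Flo- and below them in Flo+, with 579.5, 726 and 683 in +Rap+Man samples, against 326, 336 and 276 in -Rap+Man samples, and 391, 347 and 299 in +Rap samples, against 665, 499 and 448 in -Rap samples. Its difference was 1.70 ± 0.24 (limma, adjusted p = 0.00074).

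The acid phosphatase gene *PHO11*, which has 1 near-identical copy, differed in the depleted samples. Its mean was 2917 ± 803 (SD) in +Rap+Man and 209 ± 26.6 in -Rap+Man samples, and 279 ± 9.45 in +Rap and 123 ± 49.8 in -Rap samples, with a difference of 2.51 ± 0.38. Its copy *PHO12*, singled out after its value was seen, had a difference of 1.60 ± 0.39 (limma, adjusted p = 0.018) and was not called. *PHO89*, the sodium-dependent phosphate transporter gene, differed in the controls. It averaged 73429.7 ± 4587 in +Rap+Man and 154 ± 22.4 in -Rap+Man samples, and 58854 ± 2249 in +Rap and 680.3 ± 317 in -Rap samples, with a difference of 2.32 ± 0.41. *GIT1*, the glycerophosphoinositol permease gene, had a difference of 2.30 ± 0.36. *PHO89* lost its call without any of the 3 +Rap samples, +Rap+Man replicate 2 or 3 or -Rap+Man replicate 2 (2.04 to 2.80 over the fits), while the other 4 kept theirs throughout. *PHO4*, which encodes the activator of these genes and was singled out after its value was seen, had a difference of -0.42 and was not called.

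The Pho4 site CACGTG, searched for in the same windows, was found in 11 of the 20 phosphate genes (55.0%) and in 4 of the 5 that were called, against 3.96% of all windows. The windows of *PHO5* (chrII:431032-431301, minus strand) and *SPL2* (chrVIII:375181-375450, minus strand) are shown with the site in capitals, because both genes were above their controls in every +Rap+Man sample and below them in every +Rap sample.
PHO5: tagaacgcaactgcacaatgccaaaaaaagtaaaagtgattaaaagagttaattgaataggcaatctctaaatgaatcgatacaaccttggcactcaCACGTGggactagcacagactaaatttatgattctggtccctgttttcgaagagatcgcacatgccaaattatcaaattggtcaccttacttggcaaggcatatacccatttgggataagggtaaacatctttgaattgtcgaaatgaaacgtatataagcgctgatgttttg
SPL2: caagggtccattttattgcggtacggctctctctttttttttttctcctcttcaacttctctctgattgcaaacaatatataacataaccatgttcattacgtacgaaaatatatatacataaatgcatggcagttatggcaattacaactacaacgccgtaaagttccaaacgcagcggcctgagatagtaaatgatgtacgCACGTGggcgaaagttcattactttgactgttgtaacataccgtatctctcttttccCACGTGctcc
*PHO5* holds 1 match in this window and *SPL2* holds 2. Among all windows of called genes the site was in 4.88% on the higher and 6.45% on the lower side.

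Of 7 genes expressed only in cells of mating type a, 3 were called higher and none lower, with a median of 1.25. *MFA1* (YDR461W), which encodes the precursor of a-factor, had 18996, 13328 and 18849 normalized counts in +Rap+Man samples, against 5009, 4078 and 5059 in -Rap+Man samples. It had 379, 367 and 342 in +Rap samples, against 294, 699 and 486 in -Rap samples. The controls alone differed by 3.33 on the log2 scale and the +Rap and -Rap samples overlapped, while the difference in ratios was 2.20 ± 0.35 (limma, adjusted p = 0.0017). *MFA1* is 111 bases long, and the difference in ratios varied with gene length, with a median of 0.22 for genes of 74 to 669 bases. *BAR1*, the gene of the protease that degrades alpha-factor, had 6329, 4346 and 6229.5 in +Rap+Man samples, against 7336, 5583 and 5734 in -Rap+Man samples, and 1772, 1866 and 1525 in +Rap samples, against 5771, 4434 and 5115 in -Rap samples. The *BAR1* groups overlapped in Flo-, and every +Rap sample lay below every other sample, so that its difference of 1.41 ± 0.24 (limma, adjusted p = 0.0025) came from a log2 fold change of -0.15 in Flo- and -1.57 in Flo+. *AGA2*, which encodes a subunit of a-agglutinin, had a difference of 1.45 ± 0.30.

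*BAR1* lost its call without +Rap replicate 3 or +Rap+Man replicate 3 (1.33 in both fits), and *AGA2* kept its call only without +Rap+Man replicate 2, -Rap replicate 1 or -Rap+Man replicate 1 (1.28 to 1.65 over the fits). *AGA2* was also not called once the trend over gene length had been taken out (1.18, limma, adjusted p = 0.05). *PRM5*, a gene regulated by pheromone, was the only one of 21 genes of the haploid and pheromone list called, at 1.11 ± 0.19, and lost its call without +Rap replicate 1 or -Rap+Man replicate 1 (1.08 and 0.97). *MFA1*, *AGA2* and *BAR1* are 3 of the 7 markers of mating type a whose sums are given above. The largest part of these sums in +Rap+Man samples came from *MFA2* (33217 to 39950 raw counts) and *STE2* (32762 to 42400). Their differences in ratios of 0.86 and 1.25 were not called. What part a change in marker genes as a whole had in these values was not tested.

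**Figure D3:**
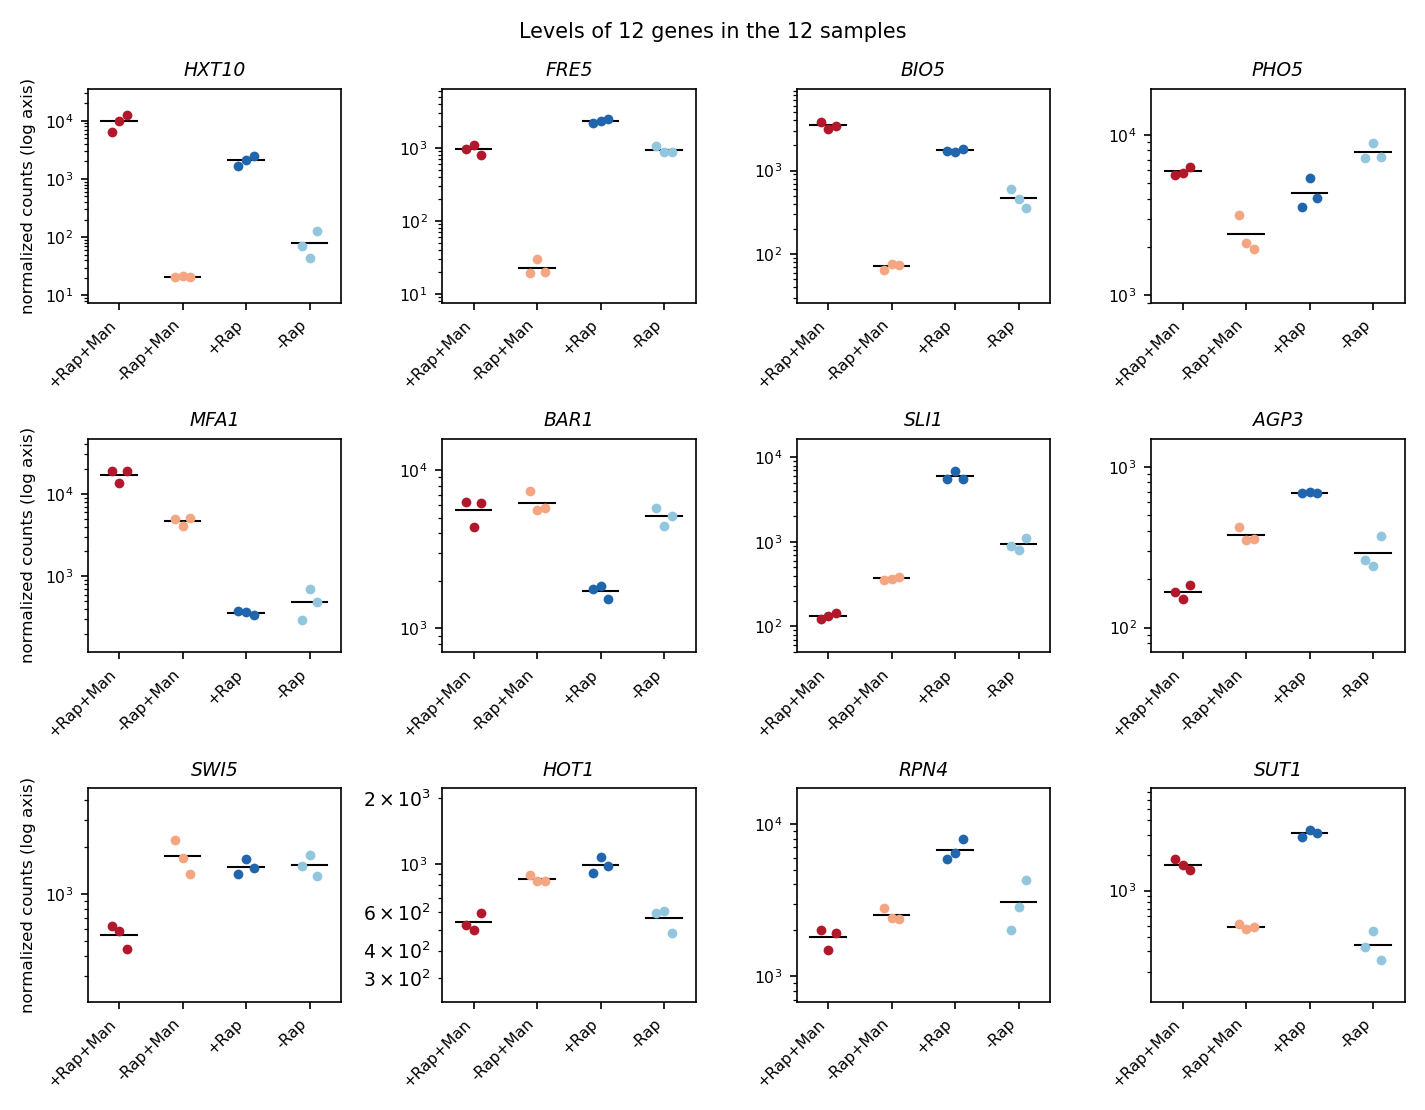
Normalized counts on a log axis for 12 genes in the +Rap+Man, -Rap+Man, +Rap and -Rap samples, with a point per replicate and a bar at the mean of each group. The -Rap+Man points of *FRE5* (19.2 to 29.9) lie far below its -Rap points (867 to 1061), while the +Rap+Man points of *SLI1* (121 to 145) lie far below its +Rap points (5473 to 6829.5).

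Seripauperins and *TIR1*, anaerobic cell wall mannoproteins that Cyc8p depletion raises strongly, were in part higher. Of 9 seripauperin genes 5 were called higher, with a median of 1.44, and all 5 have near-identical copies among which reads may be split. *PAU24*, which is also on the list of anaerobic mannoproteins, averaged 232179 ± 24559.7 (SD) in +Rap+Man and 22.6 ± 6.39 in -Rap+Man samples, and 207350.0 ± 4736 in +Rap and 125 ± 48.6 in -Rap samples. Its depleted levels were close and its controls were not, with a difference of 2.49 ± 0.33. *PAU12* (2.18 ± 0.29) and *PAU13* (1.81 ± 0.26) kept their calls without any single library. *PAU17* (1.44 ± 0.28) kept its call only without +Rap replicate 2, -Rap replicate 1 or 3 or -Rap+Man replicate 1 (1.31 to 1.65 over the fits), and *PAU7* (1.14 ± 0.21) lost it without +Rap replicate 1 or 3, +Rap+Man replicate 1 or 2 or -Rap+Man replicate 2 (1.05 to 1.24). With the trend over gene length taken out, 3 of the 5 seripauperin calls were left, as *PAU17* (1.2) and *PAU7* (0.91) were not called. *TIR1* averaged 452914 ± 71886 in +Rap+Man and 99.0 ± 21.7 in -Rap+Man samples, and 505372 ± 57087 in +Rap and 383 ± 31.2 in -Rap samples, with a difference of 1.79 ± 0.24 (limma, adjusted p = 0.00053). Apart from *PAU24* and *TIR1*, none of the 7 anaerobic mannoprotein genes was called, and the median of that list was -0.09.

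Several further genes that overlap no other gene and have no near-identical copy had large positive differences. *YNR014W*, which encodes a protein of unknown function, had 11548, 14307 and 10525 normalized counts in +Rap+Man samples, against 274, 302 and 386 in -Rap+Man samples. It had 2894, 3618 and 2952 in +Rap samples, against 1140.4, 1698 and 1494 in -Rap samples. Depleted and control samples both differed, by 1.94 and -2.16 on the log2 scale, and the sum was a difference of 4.10 ± 0.25 (limma, adjusted p = 1.7e-06). *GID10*, a substrate receptor gene of the GID ubiquitin ligase, averaged 34956 ± 5853 (SD) in +Rap+Man and 49.1 ± 13.4 in -Rap+Man samples, and 7192 ± 546 in +Rap and 146 ± 30.1 in -Rap samples, with a difference of 3.82 ± 0.27. The differences of the others of this kind were 3.92 ± 0.31 for *YJR115W*, 3.52 ± 0.30 for *SHH3*, a homologue of a succinate dehydrogenase subunit gene, 3.41 ± 0.52 for *YMR206W*, 3.26 ± 0.27 for the glutathione transferase gene *GTO3*, 3.26 ± 0.29 for *ATR2*, 3.20 ± 0.38 for *CPP3* and 2.90 ± 0.30 for *YFL051C*. For *GTO3* and *YMR206W* the depleted samples differed by no more than -0.11 on the log2 scale, and the controls by -3.36 and -3.52. *CPP3* was the reverse, with 3.00 in the depleted samples and -0.20 in the controls. All 9 kept their calls without any single library. The largest positive value of all, 4.76, was that of *VBA5*, which has 1 near-identical copy and is named after its value was seen.

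Other lists held 1 or 2 higher calls each. The spore wall genes *DIT1* (2.30 ± 0.38) and *DIT2* (2.38 ± 0.30) were called among 22 genes of meiosis and sporulation, whose median was -0.09. *DIT1* averaged 181255 ± 16236 (SD) in +Rap+Man and 249.6 ± 102 in -Rap+Man samples, and 52002 ± 9536 in +Rap and 329.6 ± 42.8 in -Rap samples. The summed meiosis markers, in depleted samples mostly counts of *IME1*, lay lower in +Rap+Man than in +Rap samples. Of 23 genes of the multidrug transporter list, *RTA1* (3.43 ± 0.38) and *RSB1*, a sphingoid base translocator gene (1.58 ± 0.34), were called. *RNR3*, the damage-inducible subunit gene of ribonucleotide reductase, had a difference of 1.14 ± 0.19, *COS4*, with 4 near-identical copies, 1.94 ± 0.40, *PEX18*, a gene of peroxisomal import, 1.92 ± 0.37, and *ERG28*, a gene of ergosterol synthesis, 1.22 ± 0.22. *RSB1* kept its call only without -Rap replicate 1 or -Rap+Man replicate 1 (1.35 to 1.87 over the fits), *COS4* only without one of the 3 -Rap+Man samples (1.55 to 2.15), and *PEX18* only without -Rap replicate 1 or 3 or -Rap+Man replicate 1 or 3 (1.62 to 2.23). With the trend over gene length taken out, *COS4* (1.92), *PEX18* (1.82) and *RSB1* (1.53) were not called. *ERG28* lost its call without +Rap replicate 1 or 3 or +Rap+Man replicate 2 or 3 (1.08 to 1.35).

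Uptake genes for nitrogen compounds were mixed. The ammonium permease gene *MEP1* had 12253, 8777 and 10187 normalized counts in +Rap+Man samples, against 4332, 2999 and 4125 in -Rap+Man samples, and 6484, 6108 and 6256 in +Rap samples, against 6576, 5855 and 8753 in -Rap samples. *MEP1* was above its control in Flo- alone, with a difference of 1.6 ± 0.25 (limma, adjusted p = 0.0016). *GDH3*, a glutamate dehydrogenase gene, had a difference of 1.36 ± 0.17, and *GAT1*, which encodes an activator of nitrogen catabolism genes, one of -1.14 ± 0.24 that was kept only without -Rap+Man replicate 3 (-1.26 to -0.93 over the fits). The median of these 28 genes was 0.17. The uridine permease gene *FUI1* (1.68 ± 0.23) and the uracil permease gene *FUR4* (1.09 ± 0.15) were called higher with log2 fold changes of 0.41 and 0.47 in Flo- and of -1.27 and -0.62 in Flo+. The nicotinic acid permease gene *TNA1* (1.13 ± 0.23) had log2 fold changes of 0.14 in Flo- and -1.0 in Flo+, and kept its call only without -Rap replicate 3 or -Rap+Man replicate 1 (0.99 to 1.29). In *HOM3*, the aspartate kinase gene (1.00 ± 0.19), the call held only without -Rap replicate 3 or -Rap+Man replicate 1 or 3 (0.91 to 1.15). *ALD5*, a mitochondrial aldehyde dehydrogenase gene, was downregulated by -1.39 in Flo- and -2.57 in Flo+, and its difference of 1.18 ± 0.23 held only without -Rap replicate 2 or 3 or -Rap+Man replicate 3 (1.04 to 1.32).

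On the lower side, *SLI1* (YGR212W), which encodes an acetyltransferase that detoxifies the sphingolipid inhibitor myriocin, had the lowest difference among called genes with neither an overlap nor a copy. It had 121, 132 and 145 normalized counts in +Rap+Man samples, against 356, 364 and 389 in -Rap+Man samples. In +Rap samples it had 5534, 6829.5 and 5473, against 892, 802 and 1109 in -Rap samples. *SLI1* thus fell below its controls in Flo- and rose above them in Flo+, with log2 fold changes of -1.47 and 2.67 and a difference of -4.14 ± 0.20 (limma, adjusted p = 3.2e-07). Its neighbour is *RTA1*, described above at 3.43. *SLI1* lies at chrVII:917040-918446 on the plus strand and *RTA1* at chrVII:918512-919465 on the minus strand of RefSeq assembly R64, so that their 3′ ends face each other and the annotated genes do not overlap. *RTA1* had 19792, 16695 and 18186 in +Rap+Man samples, against 191, 180.4 and 246 in -Rap+Man samples, and 11601, 12714 and 11121 in +Rap samples, against 1452, 861 and 2353 in -Rap samples. The strand setting of the counting is not given in the sources used here.

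*AGP3* (YFL055W), an amino acid permease gene, was the other gene called in opposite directions. It had 167, 151 and 183 normalized counts in +Rap+Man samples, against 419, 349 and 354 in -Rap+Man samples, and 689, 694 and 685 in +Rap samples, against 263, 241 and 369.8 in -Rap samples. Its fold changes of -1.15 in Flo- and 1.26 in Flo+ gave a difference of -2.41 ± 0.23 (limma, adjusted p = 4e-05), and it was the only one of 22 amino acid permease genes called. *PUS9*, which encodes a mitochondrial tRNA pseudouridine synthase, had 447, 421 and 489.7 in +Rap+Man samples, against 1589, 1578 and 1740.2 in -Rap+Man samples, and 2020.1, 2104 and 1954 in +Rap samples, against 1683, 1855 and 1471 in -Rap samples. The +Rap+Man samples of *PUS9* lay far below all others and its +Rap samples slightly above them, with a difference of -2.13 ± 0.16 (limma, adjusted p = 5.4e-06).

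In other genes of the lower side the +Rap samples stood high. *MCH2*, a gene related to monocarboxylate permeases, had 70.4, 51.2 and 66.1 normalized counts in +Rap+Man samples, against 33.1, 57.3 and 54.3 in -Rap+Man samples, and 614, 648 and 639.6 in +Rap samples, against 106, 109 and 136 in -Rap samples. Its Flo- groups overlapped and its +Rap samples were the highest of all, with a difference of -2.04 ± 0.30. *SNR11*, a small nucleolar RNA, averaged 174 ± 40.9 (SD) in +Rap+Man and 215 ± 79.3 in -Rap+Man samples, and 1928 ± 88.7 in +Rap and 341 ± 52.7 in -Rap samples, with a difference of -2.76 ± 0.37. *MKK2*, a kinase gene of the cell wall integrity pathway, averaged 755 ± 51.8 in +Rap+Man and 1144 ± 89.9 in -Rap+Man samples, and 2199.9 ± 185 in +Rap and 1114 ± 104 in -Rap samples, with a difference of -1.58 ± 0.17. *PBI1* (-1.77 ± 0.22) and *YDR124W* (-1.65 ± 0.29) were called upregulated in Flo+ only, *YIG1* (-1.80 ± 0.27) in both experiments, and *MUM3*, a gene of the spore wall (-1.86 ± 0.24), was called downregulated in Flo-. *YDR124W* lost its call without +Rap replicate 2 or 3 or +Rap+Man replicate 1 (-1.87 to -1.49 over the fits). *YGR035C* (-1.76 ± 0.34) and the homeobox repressor gene *YHP1* (-1.75 ± 0.36) differed in the controls, by 2.05 and 1.70. *YGR035C* kept its call only without -Rap replicate 1 or 3 or -Rap+Man replicate 3 (-2.02 to -1.53), and *YHP1* only without +Rap+Man replicate 2, -Rap replicate 1 or -Rap+Man replicate 3 (-1.97 to -1.52). The lowest value of all, -4.67, belonged to *YAL064W-B*, named after its value was seen and counted uncertainly for its 3 near-identical copies.

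Genes of mitosis and of daughter cell separation lay on the lower side as whole lists. None of the 19 genes of the mitotic cluster and none of the 10 genes of daughter cell separation had a difference above 0, with medians of -0.97 and -0.94, and 5 and 2 of them were called. *SWI5* (YDR146C), which encodes an activator of early G1 genes, had 622, 580.5 and 441 normalized counts in +Rap+Man samples, against 2209, 1708 and 1339 in -Rap+Man samples, and 1341, 1668 and 1467 in +Rap samples, against 1523, 1792 and 1307 in -Rap samples. The *SWI5* groups of Flo+ overlapped, and its difference was -1.62 ± 0.27 (limma, adjusted p = 0.0025).

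The other calls of the mitotic cluster were *BUD4*, a gene of bud site selection (-1.36 ± 0.26), *MMR1*, a gene of mitochondrial inheritance (-1.12 ± 0.18), *SPO12*, a gene of mitotic exit (-1.06 ± 0.21), and *IQG1*, a gene of cytokinesis (-1.03 ± 0.17). *PRY3*, which encodes a cell wall protein, was downregulated in both experiments, by -2.61 in Flo- and -1.36 in Flo+, with a difference of -1.25 ± 0.24. *SIC1*, a cyclin-dependent kinase inhibitor gene and target of Swi5, was the only one of 16 early G1 genes called, at -1.19 ± 0.21. *CLB1* and *CLB2*, mitotic cyclin genes singled out after their values were seen, had differences of -1.28 and -1.23 and were not called. *MMR1* and *SWI5* lost their calls without 1 library each, -Rap replicate 3 (-0.99) and +Rap replicate 2 (-1.54). *IQG1* lost its call without +Rap+Man replicate 3, -Rap replicate 3 or -Rap+Man replicate 1 or 2 (-1.11 to -0.93 over the fits), and *SIC1* without +Rap replicate 2 or 3 or +Rap+Man replicate 2 or 3 (-1.31 to -1.01). *BUD4* kept its call only without -Rap replicate 1 or 2 or -Rap+Man replicate 1 or 3 (-1.58 to -1.16), *SPO12* only without +Rap+Man replicate 1, -Rap replicate 3 or -Rap+Man replicate 3 (-1.18 to -0.92), and *PRY3* only without one of the 3 -Rap samples or -Rap+Man replicate 2 (-1.39 to -1.06). With the trend over gene length taken out, the medians of the mitotic cluster and of daughter cell separation were -0.73 and -0.77, with 3 and 1 calls, and *BUD4* (-0.89), *IQG1* (-0.55) and *PRY3* (-0.90) were not called.

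The forkhead proteins Fkh1 and Fkh2 bind the letters GTAAACA. These were found in the windows of 11 of the 19 mitotic cluster genes (57.9%) and of 4 of the 5 called, in 21.0% of the windows of called genes on the lower side, in 3.25% of those on the higher side and in 6.02% of all windows. The windows of *SWI5* (chrIV:750823-751092, minus strand) and *BUD4* (chrX:598385-598654, plus strand), are shown with the match in capitals because both genes were called.
SWI5: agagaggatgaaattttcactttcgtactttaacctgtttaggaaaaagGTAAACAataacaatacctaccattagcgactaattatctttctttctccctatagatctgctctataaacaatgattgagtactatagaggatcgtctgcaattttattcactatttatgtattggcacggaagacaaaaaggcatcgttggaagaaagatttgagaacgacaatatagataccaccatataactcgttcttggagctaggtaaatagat
BUD4: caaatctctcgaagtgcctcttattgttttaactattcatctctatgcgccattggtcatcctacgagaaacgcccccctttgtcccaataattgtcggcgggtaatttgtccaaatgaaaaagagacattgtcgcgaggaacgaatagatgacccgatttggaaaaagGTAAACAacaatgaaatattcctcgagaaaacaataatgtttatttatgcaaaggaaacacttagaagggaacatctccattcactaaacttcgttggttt
Each of them holds 1 match. *FKH1* and *FKH2*, singled out after their values were seen, had differences of -0.16 and -0.46 and were not called. This motif and the Aft1 core were chosen after the values of the lists were seen.

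*RPN4* (YDL020C), which encodes the activator of proteasome genes, was on the lower side without them. It had 1997, 1478 and 1925 normalized counts in +Rap+Man samples, against 2791, 2404 and 2386 in -Rap+Man samples, and 5918, 6396 and 7899.7 in +Rap samples, against 2018, 2851 and 4292 in -Rap samples. It was above every control in Flo+ and below every control in Flo-, with a difference of -1.70 ± 0.32 (limma, adjusted p = 0.0052). The call was kept only without +Rap+Man replicate 1, -Rap replicate 1 or 3 or -Rap+Man replicate 3 (-1.98 to -1.43 over the fits). No other of the 35 genes of the proteasome list was called, and their median was 0.09. The Rpn4 element, GGTGGCAAA, was present in the windows of 25 of the 35 (71.4%), against 1.22% of all windows.

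*SUT1*, which encodes a transcription factor of sterol uptake genes, was upregulated in both experiments and more so in Flo+. It had 1878, 1641 and 1492 normalized counts in +Rap+Man samples, against 515, 465 and 483 in -Rap+Man samples, and 2876, 3328 and 3099 in +Rap samples, against 326, 448 and 252 in -Rap samples. Its groups did not overlap within either experiment, and the difference was -1.44 ± 0.25 (limma, adjusted p = 0.0032). The call was lost without +Rap replicate 2 or 3 or +Rap+Man replicate 2 or 3 (-1.66 to -1.24 over the fits). *ARG3*, a gene of arginine synthesis (-1.31 ± 0.20), was the only one called of 37 amino acid synthesis genes and differed in the controls, by 1.61. *OPI1*, the gene of a repressor of phospholipid synthesis (-1.01 ± 0.19), kept its call only without +Rap replicate 2, -Rap replicate 1 or -Rap+Man replicate 1 (-1.15 to -0.89). *SUL2*, a sulfate permease gene (-1.11 ± 0.22), kept its call only without +Rap+Man replicate 3, -Rap replicate 1 or -Rap+Man replicate 1 (-1.25 to -1.01), was not called with the trend over gene length taken out (-0.76), and had log2 fold changes of -0.22 in Flo- and 0.89 in Flo+. *DIP5*, an amino acid permease gene, had a difference of 0.43 ± 0.36 and was not called, with log2 fold changes of -1.56 and -1.98.

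The flocculin genes themselves were upregulated strongly in both experiments, all 5 of them being called in each. *FLO5* had 59935, 68149 and 50818 normalized counts in +Rap+Man samples, against 896, 846 and 844 in -Rap+Man samples, and 64335, 97820.0 and 81465 in +Rap samples, against 548, 622 and 513 in -Rap samples. The depleted samples overlapped, and its difference of -1.06 ± 0.22 was called only in the full data and without +Rap replicate 1 (-1.23 to -0.91 over the fits). The *FLO5* call also ended under median-of-ratios scaling (-1.0) and with the trend over gene length taken out (-0.65). *FLO9*, with 1 near-identical copy, had a difference of 1.19 ± 0.23, kept only without +Rap replicate 2, -Rap replicate 3 or -Rap+Man replicate 2 (1.04 to 1.34). *FLO1*, also with 1 near-identical copy (0.28 ± 0.28), and *FLO10* (0.77 ± 0.33) were not called. The *FLO1* level was lower in +Rap+Man samples (6919 to 9970.0) than in +Rap samples (17256 to 29606), with controls of 105 to 123 in -Rap+Man and 364 to 485 in -Rap samples.

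**Figure D4:**
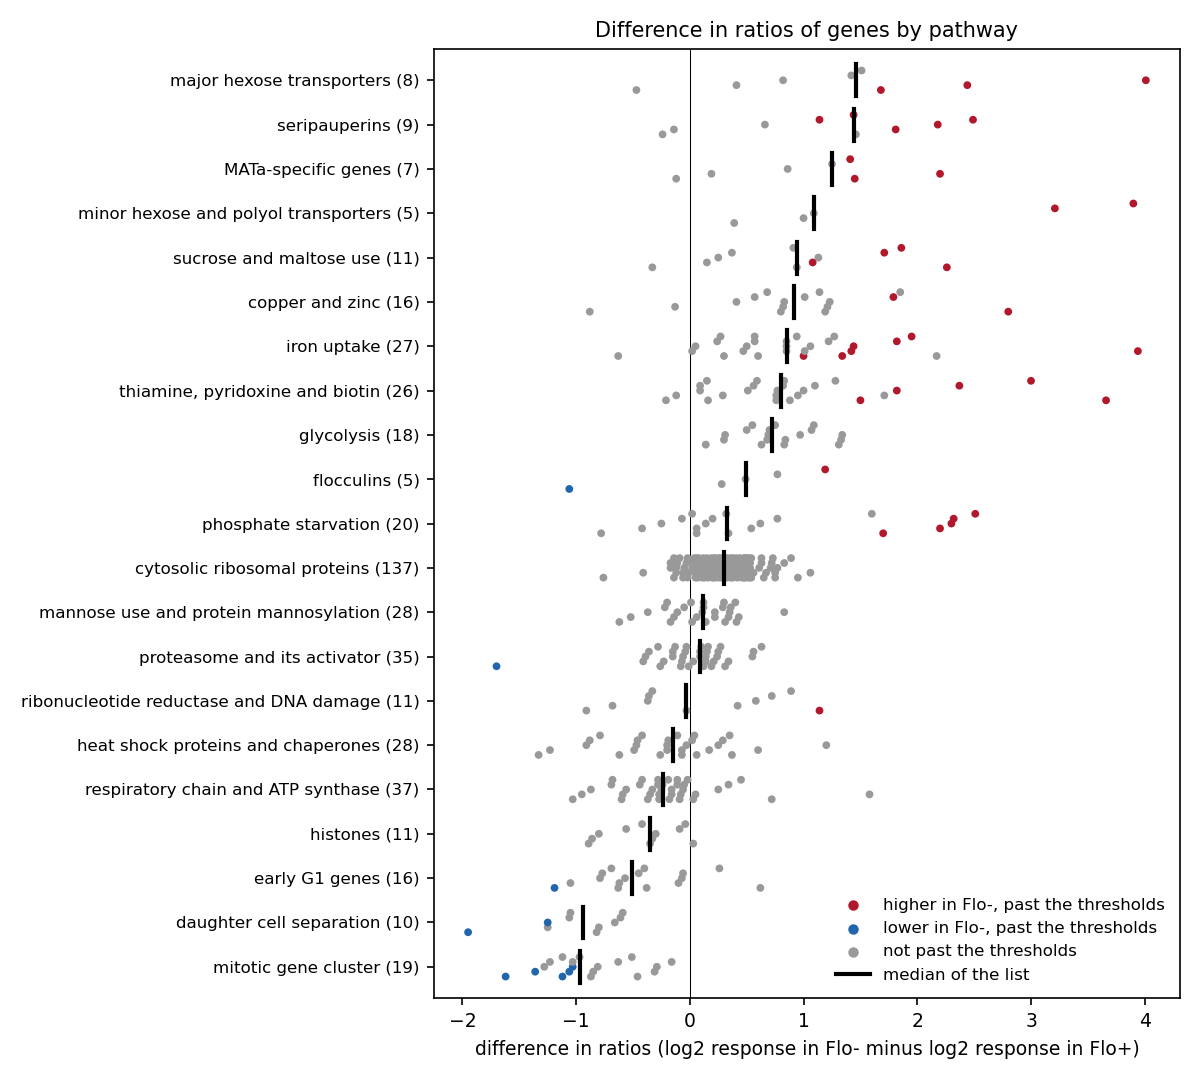
Difference in ratios (log2, horizontal axis) of the members of selected gene lists, with a point per gene, called genes in colour and a bar at the median of each list. Iron uptake, vitamin, sugar and mating type a genes lie mostly right of 0 (medians of 0.80 to 1.46), the mitotic and daughter cell separation genes lie wholly left of 0 (-0.97 and -0.94), and the proteasome genes scatter around 0 apart from *RPN4* at -1.70.

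Of the 66 lists, 35 held a call and 31 held none. Genes of cytosolic ribosomal proteins had no call among 137, although 120 lay above 0 (median 0.30), and neither did those of the respiratory chain and ATP synthase (median -0.24 over 37), histones (-0.35 over 11), heat shock proteins and chaperones (-0.15 over 28), trehalose and glycogen (0.11 over 18), gluconeogenesis and the glyoxylate cycle (0.59 over 14), or mannose use and protein mannosylation (0.12 over 28). Several of these medians moved with the trend over gene length taken out, to 0.17 for ribosomal proteins, -0.45 for the respiratory chain, -0.58 for histones, 0.38 for trehalose and glycogen, 0.23 for mannosylation and 0.03 for heat shock proteins, the last with a change of sign. Over the fits without a library the median ran between 0.18 and 0.36 for ribosomal proteins, -0.41 and -0.1 for the respiratory chain, -0.67 and -0.19 for histones, -0.37 and -0.01 for heat shock proteins, 0.38 and 0.81 for gluconeogenesis, 0.08 and 0.18 for mannosylation, and -0.15 and 0.41 for trehalose and glycogen, so that no direction is given for that list. The lists together covered 1309 of the 5771 genes, and 58 of the 125 higher and 17 of the 67 lower genes were in at least 1 of them.

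The difference in ratios varied with gene length, which touches both sides. In 5 bins of about equal size, its median was 0.22 for genes of 74 to 669 bases, 0.12 and close to 0 for the next 2 bins, -0.12 for the fourth and -0.38 for genes of 2126 to 14733 bases. The trend was seen in the Flo- fold change (Spearman rho of -0.32 with length across 5607 genes of the same 12 libraries) and not in the Flo+ fold change (-0.01), and in the depleted samples (-0.37) more than in the controls (-0.16). Called genes had a median length of 1068 bases on the higher and 1735.5 bases on the lower side, against 1242 for all. Reads were single-end in Flo- and paired-end in Flo+, and the part of this in the trend was not tested. With each sample's trend over length taken out, an alternative chosen after seeing the data, 106 of the 123 higher genes and 37 of the 64 lower genes with a known length kept their calls.

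**Figure D5:**
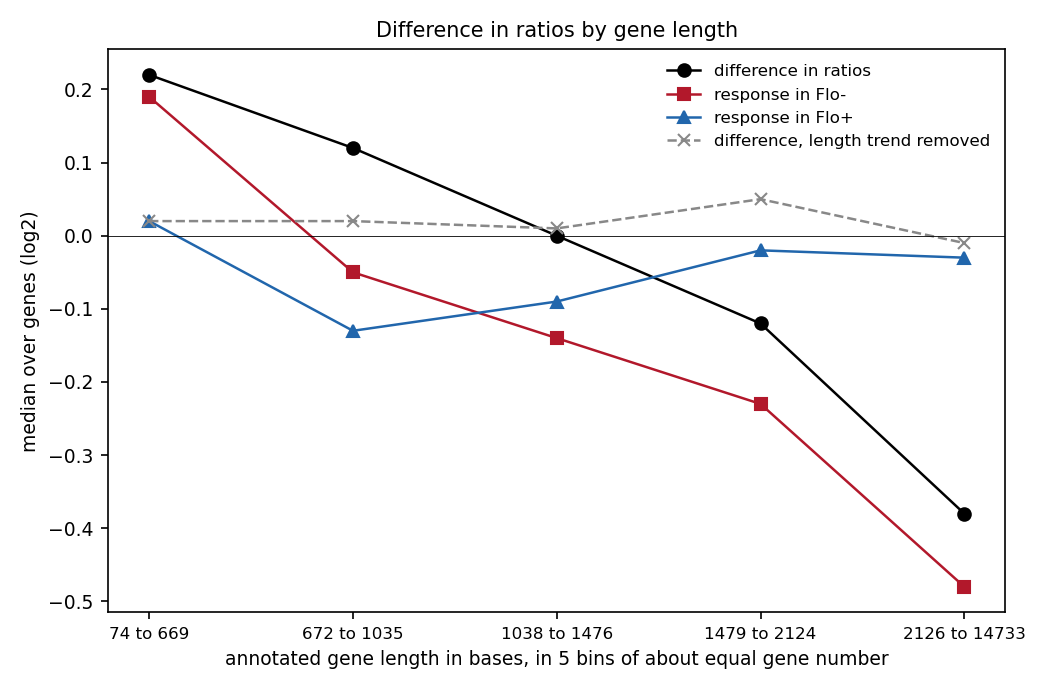
Median log2 value over the genes in 5 bins of annotated gene length in bases, for the difference in ratios, the fold changes of Flo- and Flo+, and the difference in ratios with each sample's trend over length taken out. The difference in ratios goes from 0.22 in the shortest to -0.38 in the longest genes, while the line with the trend taken out stays between -0.01 and 0.05.

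The higher genes also lay near chromosome ends more often than the set they came from. Of 123 higher genes with a known position 35 lay within 30 kb of an end (28.5%), against 4 of 64 lower genes (6.25%) and 270 of 5607 genes of all kinds (4.82%). Most higher genes were called upregulated in Flo-, and the share near an end among all genes so called was not worked out. Members that share a subtelomere often belong to copied families, and 21 of the 125 higher genes and 3 of the 67 lower genes have a near-identical copy. In the median, a higher gene had 4711 normalized counts in +Rap+Man and 206 in -Rap+Man samples, and 2160.0 in +Rap and 482 in -Rap samples. A lower gene had 531 in +Rap+Man and 857 in -Rap+Man samples, and 1340.0 in +Rap and 831 in -Rap samples. The requirement of 10 counts in every sample removed 42 called genes from the higher and 7 from the lower side. Of 22 genes whose lowest count was 10, 5 were called higher, and of 19 whose lowest count was 9, 1 was.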

How the data were processed

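RNA was extracted from 12 samples in 4 groups of 3 replicates, with depleted and control samples of an experiment taken from divided cultures. Per the methods of the study, reads were trimmed with fastp 0.20.0 and aligned with STAR 2.7.3 to the S288c genome. The counting tool, its strand setting and its handling of reads with several matches are not given in the sources used here. The values deposited by the authors are raw counts per gene, neither normalized nor pooled, written with commas between digit groups, and all were whole once these were removed. From a second deposited table only gene names were taken. Its normalized counts, log2 fold changes and adjusted p-values were made by the authors with DESeq2 and were not used. The mannose dose is from the methods of the study, since the labels write it without a decimal point.

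Counts were scaled by TMM factors (trim of 30% of log ratios and 5% of levels), and log2(scaled count + 2) was fitted over all 4 groups with limma 3.58.1 (R 4.3.3, empirical Bayes with a trend, 8 residual degrees of freedom). A fold change on this scale understates the change of low genes. A gene entered the fit (6403 did) if 3 or more samples reached a level worth 10 counts at the median depth and its counts summed to 15 or more. Of the 6775 genes, 5771 had 10 or more counts in every sample, 632 were tested but had fewer in some sample, and 372 were not tested. Benjamini-Hochberg adjustment was over all 6403 genes, with a call at an adjusted p of at most 0.01 and a log2 of at least 1. The script was checked on simulated data with known changes in 1 group, at a dispersion of 0.02. Of 50 genes raised 4-fold and 50 lowered 4-fold all were called. At a change of 2-fold, the size of the log2 threshold, 27 of 50 raised and 28 of 50 lowered genes were called. None of 6144 unchanged genes was called.

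Each culture was divided into a depleted and a control sample, and same-numbered samples deviated together from their group means (correlations of 0.552, 0.249 and 0.306 in Flo- and 0.245, 0.136 and 0.309 in Flo+), so that the numbers were taken to pair the samples. This was weaker in Flo+, where +Rap replicate 1 and -Rap replicate 2 correlated by 0.106. The fit without a block was kept as the main one, so that its p-values do not use the pairing. The block was an alternative, with 179 genes called higher and 87 lower. Other alternatives were median-of-ratios scaling, other pseudocounts, filters, a threshold of 0.05, voom weights, leaving out genes that overlap another or have a copy, leaving out each library in turn, and, chosen after seeing the data, removal of each sample's trend over gene length.

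The genes and the 66 lists were chosen with earlier results of these data known. Named are the 15 genes with the largest differences on each side that overlap no gene, have no copy and whose pair ratios do not overlap between the experiments, up to 6 called members of each list, genes the study names, and *CYC8*, *TUP1* and *ACT1*. A copy is a gene with at least 90% identity over at least 50% of the length (BLAST+ 2.17.0). Positions, lengths and promoter windows are from RefSeq assembly R64, in which 6216 genes were found by systematic name. Its release may differ from the annotation used for counting, so its coordinates were not joined to any coordinates of the study. One called gene that the rule would name is not reported here.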

Additional observations from a re-analysis of the deposited data

Results flagged for a closer look

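The test of the difference between the experiments itself singled out 125 genes with a higher and 67 genes with a lower difference in ratios. In 2 genes the experiments were called in opposite directions. The difference in ratios was -4.14 for *SLI1* and -2.41 for *AGP3* (limma, n = 3 per group), and the log2 ratios of all 3 pairs in Flo- lay below those of all 3 pairs in Flo+ for both. Such ratios did not overlap for any called gene, nor for 41% of all genes described, so this does not set the 2 genes apart.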

How the results depend on the processing

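Among the 102 named genes followed, none changed direction under any alternative. Of the 94 called, 54 kept their call in all 12 fits without a library and 40 lost it in at least 1. At an adjusted p of 0.05, 221 genes were called higher and 114 lower. With the culture as a replicate block, 179 genes were called higher and 87 lower, and no named gene changed its call. Leaving out 1 library at a time gave 72 to 139 higher and 27 to 84 lower calls, 760 to 786 upregulated and 180 to 212 downregulated genes in Flo-, and 551 to 660 upregulated and 77 to 232 downregulated genes in Flo+. With each sample's trend over gene length taken out, 119 genes were downregulated in Flo-, against 185 without this step, and 126 genes were called higher and 47 lower. The cause was not tested. The other alternatives gave 94 to 139 higher and 59 to 74 lower calls. Named genes that lost their call were 4 under median-of-ratios scaling (*OPI1*, *IQG1*, *FLO5* and *GAT1*), 4 in the fit on the 5771 genes alone and the same 4 with no filter (*FRE7*, *RSB1*, *ENB1* and *FRE4*), 5 with a pseudocount of 0.5 (these and *COS4*), 7 with voom weights (*PAU13*, *RSB1*, *PAU17*, *ENB1*, *FLO9*, *SOR1* and *PAU7*) and 12 with the trend over gene length taken out (*COS4*, *PEX18*, *RSB1*, *AGA2*, *PAU17*, *PAU7*, *IQG1*, *FLO5*, *SUL2*, *GAT1*, *PRY3* and *BUD4*).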
